A study of Mus musculus with 16 samples.

Results

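CD144 negative cells of day 6.5 embryoid bodies were compared with VEGF-R2 negative cells of day 2.5 embryoid bodies, over all probe sets of a mouse genome array that are not hybridization or labelling controls. The arrays were chosen by their sample titles, and 4 of the 16 arrays of the study belong to this comparison, 2 for each population. Both populations came from CCE cells, an unmodified line of mouse embryonic stem (ES) cells that was grown on irradiated embryonic fibroblasts with leukemia inhibitory factor (LIF). The ES cells were separated from the feeder layer and left to form embryoid bodies in medium without LIF. The bodies were dissociated, and the cells were fixed in ethanol and acetic acid, stained with antibodies and sorted by flow cytometry. The later population was sorted at day 6.5 as lacking CD144 (VE-cadherin, the adhesion molecule of endothelial junctions). The earlier one was sorted at day 2.5 as lacking VEGF-R2 (the VEGF receptor of hemangioblasts and endothelium). Both served the study as negative controls of sorted cells, and the sort antigen differs between them together with the day. Whether VEGF-R2 was also part of the day 6.5 gate is not given in the sources used here. The other negative populations were CD41 negative and CD144 negative cells of day 3.5, and each of the 4 had a positive counterpart. The study's methods write the CD41 negative cells as also lacking VEGF-R2, while the labels name CD41 alone.

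Embryoid bodies are aggregates in which ES cells leave pluripotency and pass through a stage that resembles the primitive streak of the gastrulating embryo. Mesoderm and endoderm form there, and mesoderm that carries VEGF-R2 gives rise to blood and vessels, while other mesoderm gives rise to heart muscle, smooth muscle and mesenchyme. Primitive red cells, cardiac muscle and yolk sac endoderm do not carry CD144, so a sort for cells without it can hold all of them beside undifferentiated cells.

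The deposited values are brightness values on a linear scale, with no call of whether a probe set was detected. The labels name MAS5 as the software, while the study's methods describe dChip modelling, and in the table the mean between the percentiles 2 and 98 is 500 on every array. The values are called MAS5 signals here after the labels. The median of all values was 85.8 and the 25th percentile 23.4, so signals under these levels are low. Signals of different probe sets are not on a common scale, and only differences of the same probe set are compared here. Signals summed over a gene list are given as a description, and bright probe sets weigh most in them. Differences are given as the log2 change of the signal plus an offset of 6.03, CD144 negative day 6.5 over VEGF-R2 negative day 2.5, fitted in limma over all 16 arrays. A probe set was called where its Benjamini-Hochberg adjusted p over 45037 probe sets was under 0.05. The offset makes the change of dim genes smaller than the ratio of their signals. The duplicates came from separate experiments according to the study, so that the p-values measure the spread between such pairs.

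The duplicates were not equally close. Over 7025 probe sets with a mean signal above 1000, the log2 ratio between the arrays of a pair had an SD of 0.379 in CD144 negative day 6.5 cells and of 0.11 in VEGF-R2 negative day 2.5 cells. The other 6 pairs lay between 0.196 and 0.408. Of these probe sets, 17.3% agreed within 5% between the day 6.5 duplicates and 63% between the day 2.5 duplicates, the closest of the 8 pairs. The labels do not say whether the day 2.5 arrays share an RNA, so the calls were also made with their mean as 1 sample, an alternative added after the data were seen. The ratio of 3' to 5' signal of the beta-actin control, which rises as RNA is shortened, was 1.94 to 3.28 on the day 6.5 arrays and 1.36 to 1.37 on the day 2.5 arrays. The hybridization spikes had a geometric mean of 2897 to 3022 at day 6.5 and of 2134 to 2298 at day 2.5. Over all negative sorts they had 2134 to 3022, against 6481 to 11175 over all positive sorts. The part of these differences in the results was not tested.

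The sort markers were checked on the RNA. Kdr, which encodes VEGF-R2, had signals of 352 and 427 in CD144 negative day 6.5 cells, against 2088 and 2077 in VEGF-R2 negative day 2.5 cells. The cells sorted as lacking VEGF-R2 at day 2.5 thus carried more Kdr RNA than those sorted as lacking CD144 at day 6.5, a log2 change of -2.41 (standard error 0.27, adjusted p = 1.96e-05). VEGF-R2 positive cells of day 2.5 had 5475 and 6297. Cdh5, which encodes CD144, had 31.0 and 37.2 at day 6.5, against 110 and 100 at day 2.5 (log2 change -1.47, adjusted p = 0.012), and 3166 and 2219 in CD144 positive cells of day 6.5. Its call was lost with the day 2.5 arrays averaged and without day 6.5 array 1 or either day 2.5 array, with an adjusted p up to 0.104. Itga2b, which encodes CD41, had 292 and 336 against 229 and 189 and was not called (log2 change 0.58, adjusted p = 0.167).

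Of the probe sets tested, 3951 were called, 2275 higher and 1676 lower in CD144 negative day 6.5 cells, which is 8.77% in either direction, 5.05% higher and 3.72% lower. Without adjustment, 8844 had a p under 0.05. The change was over 1 on the log2 scale for 1315 of the higher and 737 of the lower calls, and over 3 for 123 and 37 of them. The 90% interval of the change lay wholly beyond a 2-fold difference for 733 probe sets that were higher and 341 that were lower. The median change over all probe sets was 0.08 as deposited and -0.05 with each array centred on its own median. That centring turned the balance of calls to 1329 higher and 1877 lower. With the day 2.5 duplicates counted as 1 sample, 988 probe sets were called higher and 541 lower. There were 1616 calls without day 2.5 array 1, 1636 without day 2.5 array 2 and 2241 without day 6.5 array 2. A named call that was lost under another scaling, with the day 2.5 arrays averaged or without 1 array is given as lost beside its value.

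**Figure D1:**
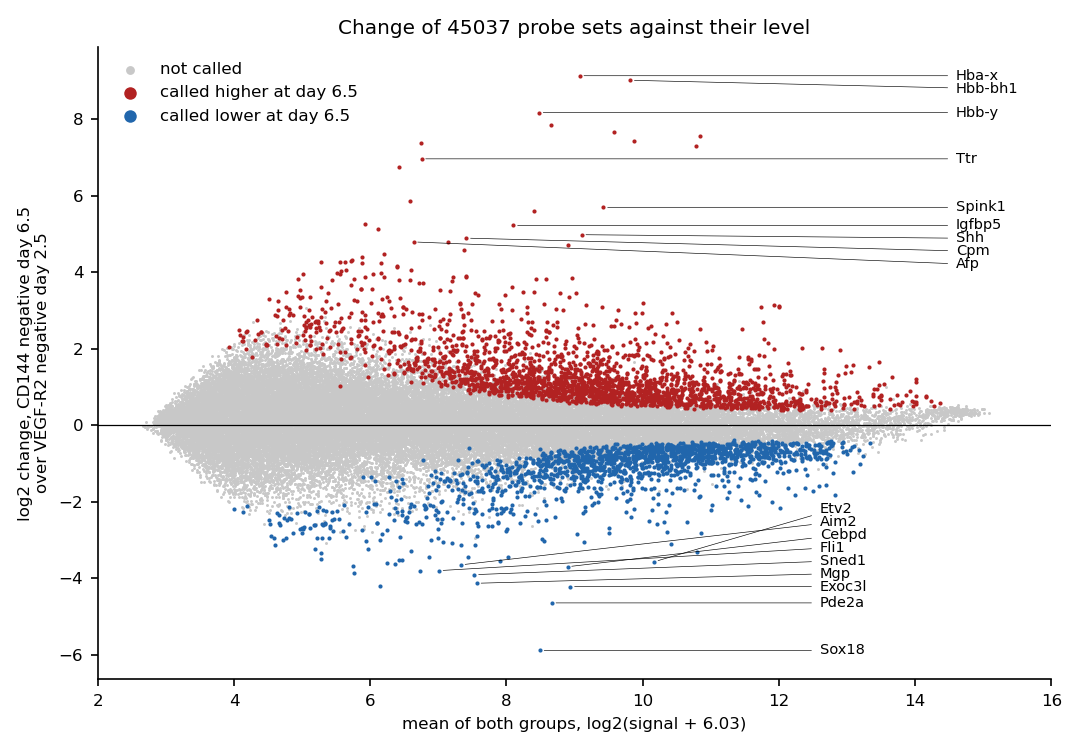
Log2 change of each of 45037 probe sets (CD144 negative day 6.5 over VEGF-R2 negative day 2.5) against the mean level of both populations on the log2(signal + 6.03) scale. Each point is 1 probe set, red points were called higher at day 6.5 and blue points lower, and the named points include embryonic globins up to a change of 9.14 and Sox18 at -5.89.

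Embryonic globin transcripts had the largest increases. Among the 15 genes with the largest increase whose level passed the 75th percentile of all values were the embryonic globins Hba-x, Hbb-bh1 and Hbb-y, the carrier proteins Ttr and Afp, the trypsin inhibitor Spink1 and the secreted Nodal and Wnt antagonist Cer1. The same 15 held the morphogen Shh, the transcription factor Foxa2, the growth factor binding protein Igfbp5, the matrix protein Postn, the peptidase Cpm, the protease Tmprss2, the glycogen-targeting phosphatase subunit Ppp1r3c and Rtp4, a gene known as interferon-induced. Their log2 changes ran from 3.86 for Foxa2 to 9.14 for Hba-x. Spink1 had signals of 4852 and 4955 at day 6.5, against 72.7 and 108 at day 2.5 (log2 change 5.70, standard error 0.34, adjusted p = 2.23e-08). Shh, which patterns the embryonic midline and endoderm, had 3142 and 2997, against 109 and 76.0 (log2 change 4.98, adjusted p = 1.29e-06). Igfbp5, which binds insulin-like growth factors, had 1504 and 1840, against 32.6 and 45.4 (log2 change 5.23, adjusted p = 2.12e-06). In CD144 positive cells of day 6.5 the means were 5690 for Spink1, 1755 for Igfbp5 and 332 for Shh. For Shh, Igfbp5, Ppp1r3c and Rtp4, 1 of 2 probe sets was called, for Tmprss2 2 of 4 and for Afp 4 of 5. No day 6.5 array overlapped a day 2.5 array for any of the 15, which the rule for naming them required. Over all probe sets, 54.8% did not overlap between the populations.

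The 15 largest decreases held Sox18, Etv2 and Fli1, transcription factors of vessel formation, Pde2a, a cyclic nucleotide phosphodiesterase, Dppa2, a gene of undifferentiated ES cells, Gbx2, a homeobox gene, and Cebpd, a transcription factor of the stress response. Log2 changes ran from -5.89 for Sox18 to -3.06 for the synaptic scaffold gene Shank3. Pde2a had signals of 106 and 49.1 at day 6.5, against 1951 and 1984 at day 2.5 (log2 change -4.65, standard error 0.33, adjusted p = 1.14e-07). Cebpd had 119 and 133, against 1689 and 1738 (log2 change -3.70, standard error 0.20, adjusted p = 5.06e-09), and was called on 1 of its 2 probe sets. Gbx2 had 79.5 and 66.1, against 822 and 897 (log2 change -3.46, adjusted p = 0.000237). Mgp, an inhibitor of calcification, had 31.1 and 48.0 at day 6.5, against 818 and 746 at day 2.5, while means were 22.7 in CD144 negative and 44.2 in CD41 negative cells of day 3.5 and 11.6 in VEGF-R2 positive cells of day 2.5. The call of Mgp (log2 change -4.13, adjusted p = 0.00504) was lost without day 2.5 array 1 and with the day 2.5 arrays averaged, with an adjusted p up to 0.0584. That of Sned1, a matrix protein gene, was lost without day 6.5 array 1, without either day 2.5 array and with these averaged, with an adjusted p up to 0.135.

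To follow known cell types, 29 gene lists were used, each gene represented by the probe set with its highest mean signal over the 16 arrays. Over 18193 genes represented in this way, 8.21% were called higher and 5.46% lower, and the median change was 0.10. For some genes described below only part of several probe sets was called, as for Pdgfra, Tbx20, Hand2 and Bmp5 with 1 of 3 and Fgf4 with 1 of 4. In sorted bulk RNA, fewer cells of a type and less RNA per cell cannot be told apart.

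**Figure D2:**
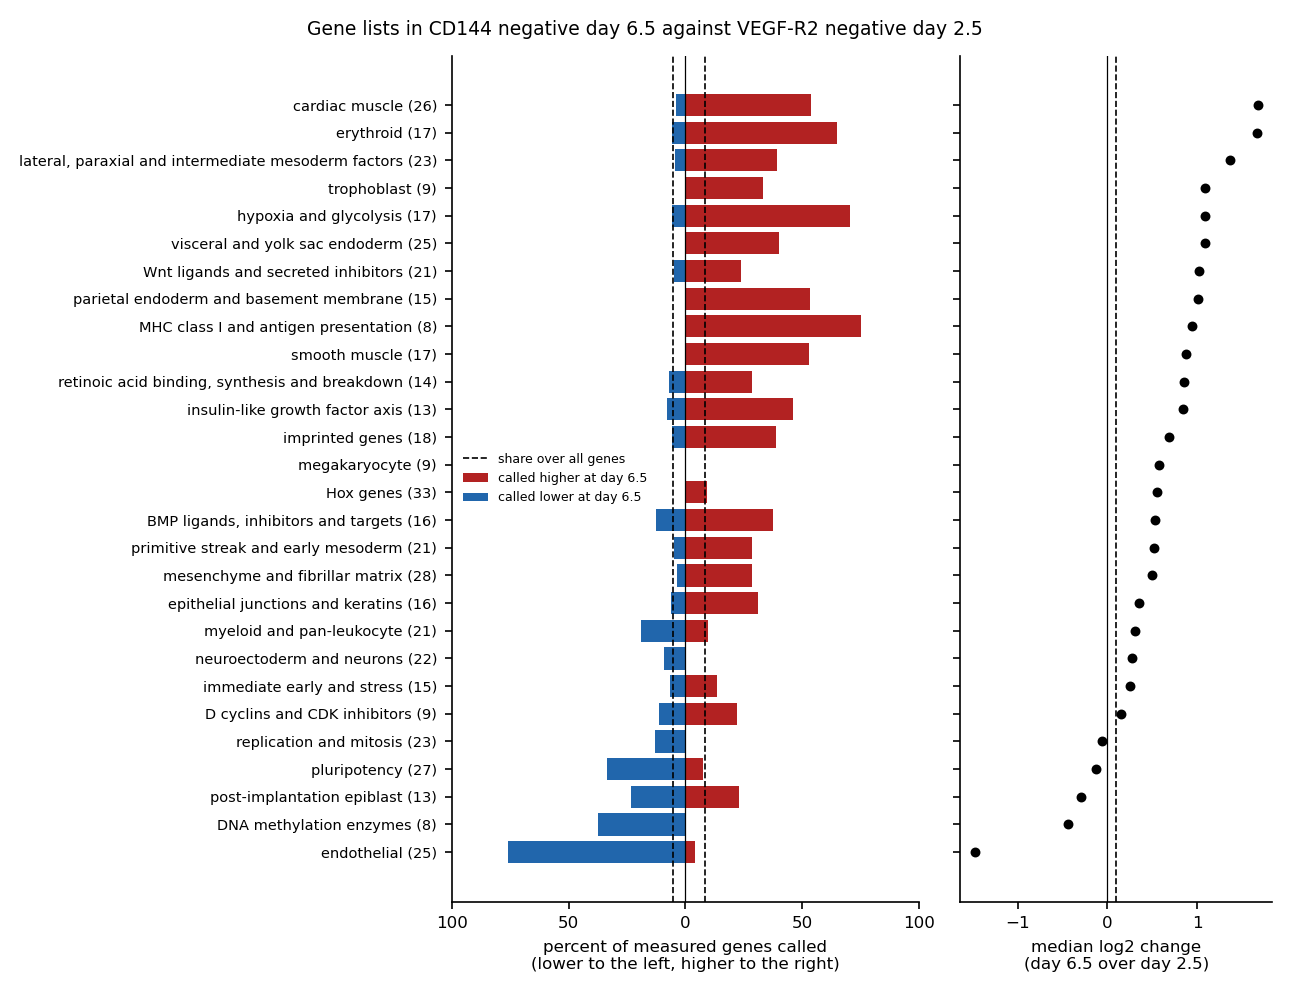
Percent of the measured genes of 28 lists that were called higher (red, to the right) or lower (blue, to the left) in CD144 negative day 6.5 cells than in VEGF-R2 negative day 2.5 cells, with the number of measured genes in brackets, and at right the median log2 change of each list. Dashed lines mark the shares over all genes (8.21% higher, 5.46% lower) and their median change of 0.10. Cardiac and erythroid genes lie at the top and endothelial genes at the bottom.

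Endothelial transcripts fell. Of 25 measured genes of the list, 19 were called lower in CD144 negative day 6.5 cells and 1 higher, with a median log2 change of -1.48, against 5.46% lower and 8.21% higher over all genes. The list holds Kdr and Cdh5, which encode the sort antigens, and the day 6.5 cells were sorted as lacking an endothelial antigen. Summed over the list, the signal was 4812 and 5585 on the day 6.5 arrays, against 18282 and 18122 on the day 2.5 arrays. It was 5534 to 5624 in CD144 negative and 3991 to 4140 in CD41 negative cells of day 3.5. By this sum, in which bright probe sets such as those of Etv2 and Sox18 weigh most, VEGF-R2 negative cells of day 2.5 were highest among the negative populations. Sox18, a driver of arterial and lymphatic vessel formation, had 72.6 and 17.3 at day 6.5, against 2460 and 2612 at day 2.5 (log2 change -5.89, standard error 0.38, adjusted p = 5.82e-08). VEGF-R2 positive cells of day 2.5 had a mean of 2261, below both VEGF-R2 negative arrays. Etv2, the ETS factor that specifies blood and vessel progenitors, had 321 and 333, against 3913 and 4009 (log2 change -3.57, standard error 0.18, adjusted p = 3.8e-09), and 12421 and 14254 in VEGF-R2 positive day 2.5 cells. Fli1, another ETS factor, had 25.3 and 31.7, against 488 and 461 (log2 change -3.80, adjusted p = 0.000344). The lymphatic receptor Flt4 had 341 and 540, against 1708 and 1727 (log2 change -1.99, adjusted p = 8.97e-05).

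Surface genes of mature endothelium were also lower. Cd34, a sialomucin of vessels and blood progenitors, had 71.3 and 91.7 at day 6.5, against 371 and 406 at day 2.5 (log2 change -2.18, adjusted p = 1.9e-05). Pecam1, an adhesion molecule that ES cells also express, had 67.2 and 97.3, against 270 and 273 (log2 change -1.67, adjusted p = 0.000685). Eng, a co-receptor for TGF-beta ligands, had 181 and 185, against 761 and 713 (log2 change -1.97, adjusted p = 3.78e-05). The tight junction gene Cldn5, the adhesion molecule Esam and the receptor gene Tie1 were called lower with log2 changes of -1.95, -2.06 and -2.32. At day 6.5 the mean of Tie1 was 9.51, less than most values on the arrays. The exception was Flt1, the decoy receptor for VEGF, with 611 and 694 at day 6.5, against 294 and 286 at day 2.5 (log2 change 1.15, adjusted p = 0.0016), called on 1 of its 4 probe sets. Leaving out 1 array left 13 to 17 of the 19 lower calls in number, and averaging the day 2.5 arrays left 14. Calls lost in this way were those of Tek (adjusted p up to 0.0952), Robo4 (0.349), Icam2 (0.127), Ecscr (0.0735), Adgrf5 (0.0947) and Cdh5.

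**Figure D3:**
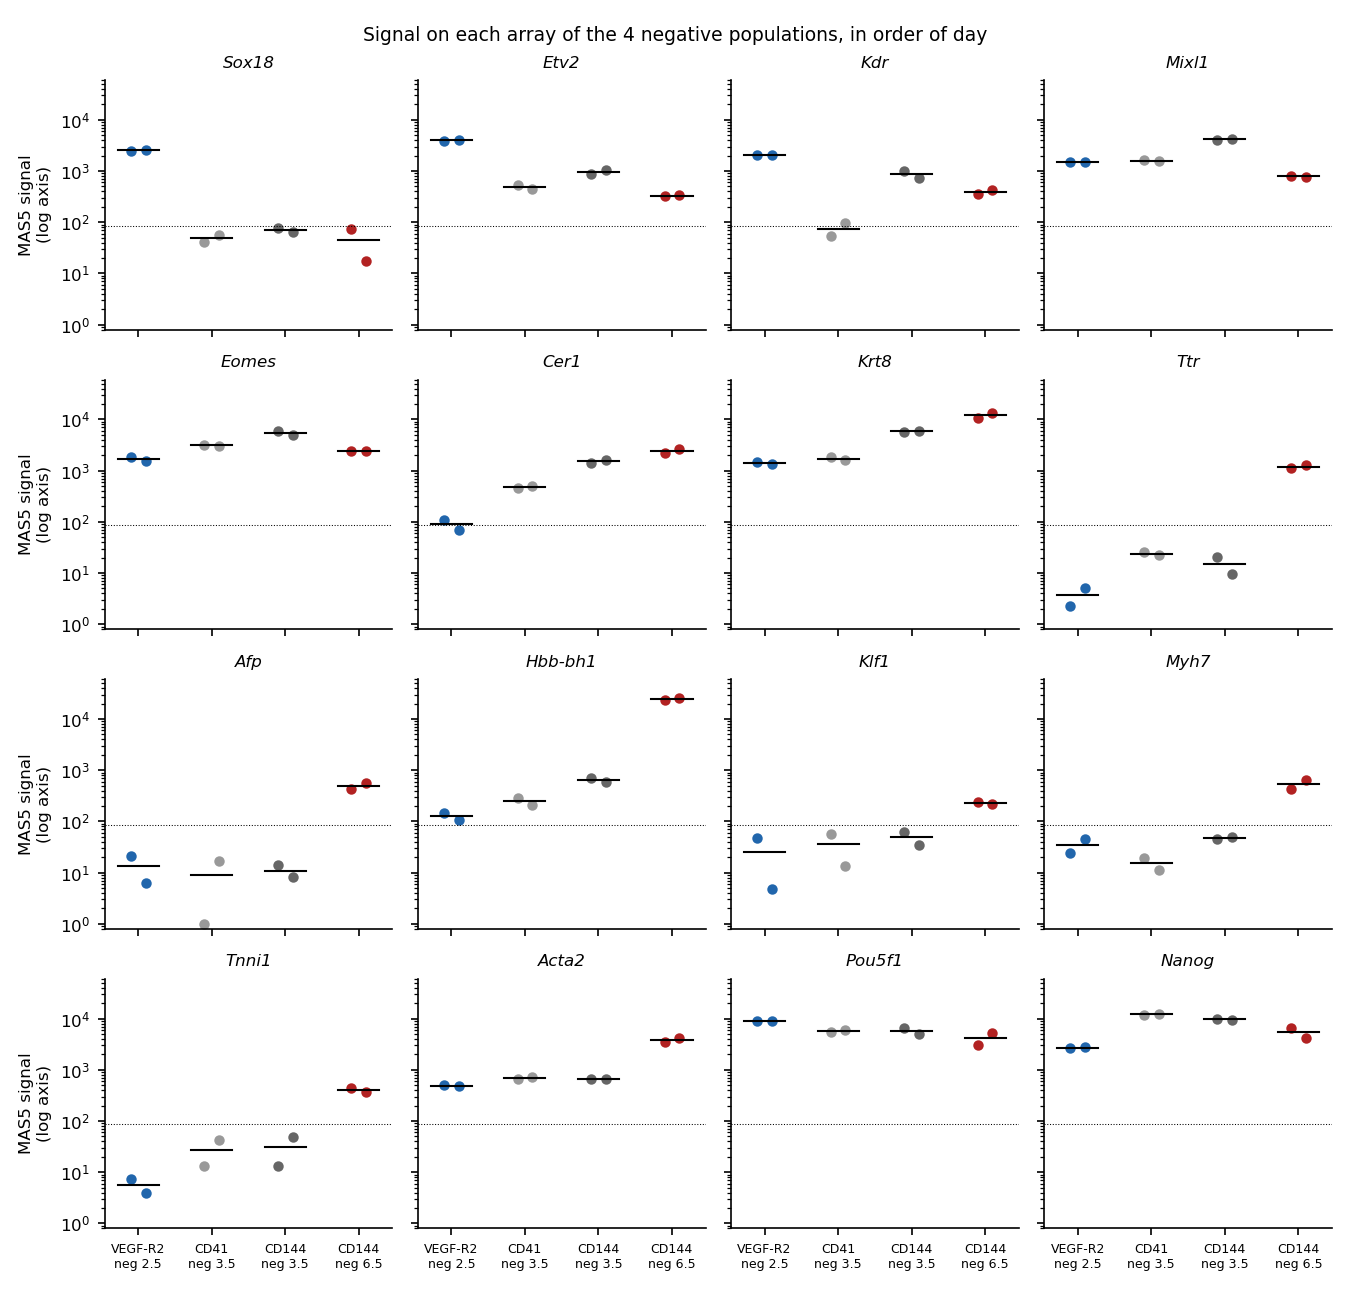
MAS5 signal on a log axis of 16 genes on each array (points) of the 4 negative populations in order of day, with the mean of each pair as a bar, the median of all values (85.8) as a dotted line and values under 1 drawn at 1. Sox18, Etv2 and Kdr are high in VEGF-R2 negative cells of day 2.5, Mixl1 and Eomes are highest in CD144 negative cells of day 3.5, and Ttr, Afp, globin and sarcomere genes are highest at day 6.5.

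Pluripotency genes did not move as a block. Of 27 measured genes, 9 were called lower and 2 higher at day 6.5, with a median log2 change of -0.13. Pou5f1, the core factor OCT4, had 3075 and 5219 at day 6.5, against 8912 and 8896 at day 2.5, and was not called (log2 change -1.15, standard error 0.44, adjusted p = 0.13). Sox2 had 5375 and 5830, against 6226 and 6487 (log2 change -0.18, adjusted p = 0.861). Nanog was higher at day 6.5, with 6584 and 4210, against 2671 and 2755 (log2 change 0.96, adjusted p = 0.018). Its call was lost under median centring, without day 6.5 array 1, without either day 2.5 array and with these averaged, with an adjusted p up to 0.197. In CD144 negative day 6.5 cells all 3 of these core factors lay far above the median of all values.

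The genes that fell were mostly others of the pluripotent state. Dppa2 had 533 and 583 at day 6.5, against 5637 and 5681 at day 2.5 (log2 change -3.33, standard error 0.23, adjusted p = 8.39e-08). Its partner Dppa4 had 1487 and 1322, against 5526 and 5454 (log2 change -1.96, adjusted p = 1.37e-05). Utf1, a chromatin factor of undifferentiated cells, had 1764 and 1767, against 5970 and 5955 (log2 change -1.75, adjusted p = 0.000356). Gdf3 and Fgf4, ligands made by undifferentiated cells, fell with log2 changes of -1.94 and -1.48, and Klf2, Zscan10 and L1td1 fell with -1.02, -0.96 and -1.82. Prdm14, a repressor of differentiation, was higher, with 280 and 286 against 48.9 and 67.4 (log2 change 2.19, adjusted p = 0.000245). The call of Klf5 (log2 change -0.87) was lost under median centring and without each of the 4 arrays in turn, with an adjusted p up to 0.316.

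Among 13 epiblast genes, 3 were called higher and 3 lower (median log2 change -0.29). Pou3f1, the POU factor OCT6 of the primed epiblast, had 926 and 1072 at day 6.5, against 4246 and 4257 at day 2.5 (log2 change -2.09, adjusted p = 4.62e-05). Otx2, which patterns the anterior epiblast and endoderm, had 5731 and 4833, against 1857 and 1930 (log2 change 1.47, adjusted p = 0.00285). Car4, a carbonic anhydrase, had 5550 and 4584, against 1444 and 1466 (log2 change 1.79, adjusted p = 0.000596). Enzymes of de novo DNA methylation diverged. Dnmt3a had 830 and 513, against 3962 and 3640 (log2 change -2.53, adjusted p = 4.96e-07). Dnmt3l, the cofactor without catalytic activity, had 442 and 464, against 2595 and 2643 (log2 change -2.52, adjusted p = 3.7e-06), while Dnmt3b had 9954 and 14902, against 14744 and 15287, and was not called (log2 change -0.30, adjusted p = 0.482). Of the 8 enzymes measured, 3 were lower and 0 higher, the third being Tet1, whose call was lost without day 2.5 array 2 (adjusted p = 0.0794).

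Primitive streak genes had signal at both days, and more of it in the CD144 negative cells of day 3.5. Of 21 measured genes, 6 were called higher and 1 lower at day 6.5 (median log2 change 0.52). In CD144 negative day 3.5 cells, 15 were called higher and 0 lower than in VEGF-R2 negative day 2.5 cells. Over all genes, 6.48% were higher and 4.95% lower there. In CD144 negative day 6.5 cells 5 were lower and 0 higher than in CD144 negative cells of day 3.5, against 0.280% lower and 0.940% higher over all genes. The 3 comparisons share arrays. The signal summed over the list was 10372 and 9813 at day 2.5, 39164 to 39253 in CD144 negative cells of day 3.5, and 19905 and 20507 at day 6.5. In CD41 negative cells of day 3.5 it was 14769 and 14410, below day 6.5, so that the level at day 3.5 differed with the sort. Mixl1, a homeobox gene of the streak, had 1526 and 1477 at day 2.5, 4020 and 4310 at day 3.5, and 803 and 767 at day 6.5. Its lower level at day 6.5 than at day 2.5 (log2 change -0.93, adjusted p = 0.0101) lost its call without day 6.5 array 2, without either day 2.5 array and with these averaged, with an adjusted p up to 0.0921. Eomes, the T-box factor of streak and definitive endoderm, had 1837 and 1566 at day 2.5, 5929 and 4995 at day 3.5, and 2409 and 2451 at day 6.5 (log2 change 0.52 over day 2.5, adjusted p = 0.319). Mesp1, a factor of early cardiac mesoderm, had 485 and 321, then 1658 and 1857, then 489 and 473 at these days, so that its levels at day 6.5 and day 2.5 overlapped, and its mean was 241 in CD41 negative cells of day 3.5, below both.

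The streak genes that were higher at day 6.5 included those known from the anterior streak and its endoderm. Cer1 had 2240 and 2595 at day 6.5, against 108 and 68.9 at day 2.5 (log2 change 4.71, standard error 0.25, adjusted p = 5.06e-09). Foxa2, the forkhead factor of definitive endoderm, node and floor plate, had 1673 and 2096, against 146 and 105 (log2 change 3.86, standard error 0.23, adjusted p = 1.89e-08). Fgf8, a streak ligand, had 1304 and 1174, against 345 and 324 (log2 change 1.87, adjusted p = 6.8e-06), and was higher still at day 3.5, with 4202 and 4464. Frzb, a secreted Wnt antagonist, and Pdgfra, a receptor of paraxial and cardiac mesoderm, were higher with log2 changes of 1.68 and 1.39. The sixth, Cyp26a1, an enzyme that breaks down retinoic acid, had a log2 change of 0.96 and lost its call under median centring and without each of the 4 arrays in turn, with an adjusted p up to 0.121.

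Endoderm genes rose, several of them over low signals at day 2.5. In the list of visceral and yolk sac endoderm, 10 of 25 measured genes were called higher and 0 lower (median log2 change 1.08). Ttr, the thyroxine carrier, had 1120 and 1269 at day 6.5, against 2.23 and 5.09 at day 2.5 (log2 change 6.97, standard error 0.56, adjusted p = 5.4e-07), and all 4 of its probe sets were called higher. Afp, the fetal serum carrier, had 438 and 564, against 20.6 and 6.32 (log2 change 4.79, adjusted p = 0.00131). Sox17, an endoderm and endothelial factor, had 2212 and 3010, against 340 and 328 (log2 change 2.93, adjusted p = 4.26e-06). Apoa1 and Rbp4, secreted carriers of lipid and retinol, were higher with log2 changes of 2.85 and 2.05. Albumin was not among the calls, with means of 27 at day 6.5 and 21 at day 2.5, nor was the hepatic and endoderm factor Hnf4a on the probe set that stands for it, with 34 and 22. CD144 positive day 6.5 cells, with 6919 and 8700, had more Ttr than the CD144 negative cells of that day. The number of calls fell to 6 without day 2.5 array 2, when Dab2, Gata6, Foxa1 and S100g lost their calls (over all alternatives, adjusted p up to 0.0526, 0.135, 0.169 and 0.0959).

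Basement membrane and keratin genes were higher as well. Of 15 genes of parietal endoderm and basement membrane, 8 were called higher and 0 lower (median log2 change 1.01), which became 5 without day 2.5 array 2. Lama1, the laminin chain of embryonic basement membranes, had 2102 and 1941 at day 6.5, against 291 and 294 at day 2.5 (log2 change 2.76, standard error 0.36, adjusted p = 9.97e-05). Srgn, a granule proteoglycan, had 1915 and 1522, against 156 and 145 (log2 change 3.46, adjusted p = 2.96e-06). Pth1r, the parathyroid hormone receptor known from parietal endoderm, had 780 and 1003, against 135 and 182 (log2 change 2.45, adjusted p = 4.19e-05). Sparc, a matrix glycoprotein, had 7968 and 7741, against 2645 and 2473 (log2 change 1.62, adjusted p = 0.000475), on 1 of its 3 probe sets. Calls lost in the list were those of Col4a1 (adjusted p = 0.0522 without day 2.5 array 2), Lamb1 (up to 0.13) and Plat (up to 0.235).

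The keratins Krt8, Krt18 and Krt19 of simple epithelia rose, while Krt7, counted in the trophoblast list, had 234 and 186 at day 6.5, against 103 and 87.0 at day 2.5, and was not called (log2 change 1.09, adjusted p = 0.455). Krt8 had 10601 and 13476 at day 6.5, against 1476 and 1327 at day 2.5 (log2 change 3.09, standard error 0.19, adjusted p = 2.21e-08). Krt18, its partner in filaments, had 11593 and 12565, against 1339 and 1457 (log2 change 3.11, adjusted p = 3.87e-08). Krt19 had 3331 and 2862, against 332 and 329 (log2 change 3.20, adjusted p = 4.82e-07). Junction genes of the same list differed among themselves. Dsp, desmoplakin of desmosomes, had 2165 and 2493, against 781 and 831 (log2 change 1.52, adjusted p = 0.000242), and was called on 2 of its 3 probe sets. Cdh1, E-cadherin, had 7942 and 9593, against 11322 and 11579 (log2 change -0.39, adjusted p = 0.531), and Epcam had 6572 and 7026, against 7127 and 6986 (log2 change -0.05, adjusted p = 0.978). Of 16 genes of the list, 5 were higher and 1, the epithelial factor Grhl2, was lower (median log2 change 0.35). Trophoblast markers gave 3 higher of 9 measured (Plac1, Gata3 and Tfap2c), which became 1 without day 6.5 array 2. Of these, Plac1 had 176 and 180, against 29.1 and 45.9 (log2 change 2.11, adjusted p = 0.00123). The call of Gata3 was lost with the day 2.5 arrays averaged, without either day 6.5 array and without day 2.5 array 2.

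Cardiac muscle genes had the largest median change of the lists drawn in the plot of gene lists, 1.68, with 14 of 26 measured genes higher and 1 lower. Most of the genes that rose encode parts of the sarcomere. Tnni1, the slow troponin I of the embryonic heart, had 432 and 366 at day 6.5, against 7.46 and 3.98 at day 2.5 (log2 change 5.12, standard error 0.62, adjusted p = 4.75e-05). Tnnc1, cardiac troponin C, had 1182 and 1403, against 102 and 70.5 (log2 change 3.83, standard error 0.27, adjusted p = 1.14e-07). Myh7, the beta myosin heavy chain, had 427 and 649, against 23.7 and 44.5 (log2 change 3.78, adjusted p = 8.08e-05). Actc1, cardiac actin, had 1177 and 985, against 165 and 160 (log2 change 2.69, adjusted p = 9.59e-08). The light chains Myl7, Myl3 and Myl4 were higher with log2 changes of 3.45, 3.54 and 2.30. Factors that specify the heart were also called: Isl1, of the second heart field, had 742 and 667, against 68.6 and 78.2 (log2 change 3.16, adjusted p = 0.000269), and Hand2 had 491 and 725, against 63.4 and 37.6 (log2 change 3.45, adjusted p = 1.37e-05).

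Not every heart gene followed. Nkx2-5 and Tbx5, factors of the heart fields, had means of 80 and 12 at day 6.5, against 72 and 9 at day 2.5, and Myl2, the ventricular light chain, had 48 against 51. Myh6, the alpha myosin heavy chain, was lower, with 124 and 205 against 436 and 375 (log2 change -1.31, adjusted p = 0.0293). That call was lost without day 6.5 array 1, without either day 2.5 array and with these averaged, with an adjusted p up to 0.239. Leaving out 1 array gave 11 or 12 higher calls in the list. Tnnt2, cardiac troponin T, lost its call without day 6.5 array 2 or day 2.5 array 1 (adjusted p up to 0.0891), Nppb lost it in 4 alternatives (up to 0.108), and Gata4 lost it under median centring, quantile normalization and without each array in turn (up to 0.315).

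In the smooth muscle list, 9 of 17 measured genes were higher and 0 lower (median log2 change 0.87). Acta2, smooth muscle actin, had 3439 and 4180 at day 6.5, against 507 and 474 at day 2.5 (log2 change 2.94, standard error 0.20, adjusted p = 9.59e-08). Cald1, caldesmon, had 6924 and 8707, against 1948 and 1933 (log2 change 2.00, adjusted p = 0.000101). Tagln and Tpm1, an actin binding protein and a tropomyosin, were higher with log2 changes of 1.53 and 1.55. The markers of contractile smooth muscle Myh11 and Cnn1 had means of 12 and 264 at day 6.5, against 15 and 279 at day 2.5. The count of 9 became 5 without day 6.5 array 2, without either day 2.5 array and with these averaged, when Cnn2, Des, Tpm2 and Myocd lost their calls (adjusted p up to 0.316).

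Several sarcomere and actin genes are known to be driven through the CArG box, the binding motif of serum response factor, which is CC, then 6 bases each A or T, then GG. The start regions of genes called in the cardiac and smooth muscle lists were therefore read from RefSeq on GRCm38.p6, 250 bases before to 50 after the start of transcription. A match on one strand is also a match on the other. Of 24 called genes, 19 matched a region in the table and at least 4 of these held the motif. Of all 43 measured genes of both lists, 35 matched and 5 held it, while 535 of 32851 start regions (1.63%) held it over the whole table. The count of 4 may leave out called genes with the motif, so it is not compared with these shares. A match is a description of letters and no test of binding. The regions are printed on the strand of the gene, 5' to 3', with the CArG box in capitals. It lies 85 bases before the start in Myl3 (chr9:110763428-110763727, plus strand), 61 in Myl7 (chr11:5898733-5899032, minus strand), 47 in Actc1 (chr2:114052826-114053125, minus strand) and 56 in Cnn2 (chr10:79988350-79988649, plus strand).
Myl3: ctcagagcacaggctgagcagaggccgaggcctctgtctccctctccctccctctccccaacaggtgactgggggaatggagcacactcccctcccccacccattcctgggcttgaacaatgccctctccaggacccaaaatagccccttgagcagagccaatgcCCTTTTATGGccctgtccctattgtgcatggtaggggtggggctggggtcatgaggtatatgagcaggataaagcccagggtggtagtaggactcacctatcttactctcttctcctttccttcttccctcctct
Myl7: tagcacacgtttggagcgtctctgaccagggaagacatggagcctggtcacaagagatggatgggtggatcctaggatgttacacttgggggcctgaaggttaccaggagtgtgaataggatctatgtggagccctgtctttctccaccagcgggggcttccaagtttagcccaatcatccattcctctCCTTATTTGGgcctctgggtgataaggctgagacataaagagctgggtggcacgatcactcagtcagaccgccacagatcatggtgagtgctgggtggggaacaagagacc
Actc1: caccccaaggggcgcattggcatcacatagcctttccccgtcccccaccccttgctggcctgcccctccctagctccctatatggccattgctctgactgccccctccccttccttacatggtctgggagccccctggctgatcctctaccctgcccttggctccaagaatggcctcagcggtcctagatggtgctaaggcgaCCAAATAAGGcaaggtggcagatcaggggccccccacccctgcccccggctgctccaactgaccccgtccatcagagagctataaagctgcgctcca
Cnn2: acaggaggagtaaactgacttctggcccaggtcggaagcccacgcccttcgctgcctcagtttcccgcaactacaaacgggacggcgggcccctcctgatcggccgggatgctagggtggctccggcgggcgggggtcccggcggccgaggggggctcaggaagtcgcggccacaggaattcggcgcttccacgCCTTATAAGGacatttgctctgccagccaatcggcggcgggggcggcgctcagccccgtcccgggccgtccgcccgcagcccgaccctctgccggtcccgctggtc
Of the 4, Actc1 has the box nearest to the start. Myl7 had 1429 and 1451 at day 6.5, against 144 and 111 at day 2.5. Cnn2 had 2886 and 3755, against 2205 and 2205 (log2 change 0.58, adjusted p = 0.0322), the smallest change of the 4 and a call that was lost as given above.

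Mesenchyme and fibrillar matrix genes were mixed, with 8 of 28 higher and 1, Mgp, lower (median log2 change 0.50). Snai2, a factor of epithelial to mesenchymal transition, had 1330 and 1747 at day 6.5, against 125 and 164 at day 2.5 (log2 change 3.36, adjusted p = 0.000234), on 1 of its 2 probe sets. Postn had 690 and 604, against 39.4 and 37.4 (log2 change 3.88, adjusted p = 9.4e-05). CD144 positive cells of day 6.5 had more Postn signal, 1470 and 1745. Col5a1, a fibrillar collagen chain, had 1239 and 1511, against 362 and 284 (log2 change 2.07, adjusted p = 2.09e-05), and Vim had 10604 and 8916, against 4856 and 4951 (log2 change 0.99, adjusted p = 0.000401). The feeder layer of the ES cells was embryonic fibroblast, and genes known from fibroblasts went several ways. Dcn had means of 102 at day 6.5 and 94 at day 2.5, Lum 68 and 28, and Thy1 137 and 300, none of them called. Col1a2, a chain of type I collagen, had 1431 and 1658, against 559 and 549 (log2 change 1.47, adjusted p = 0.000266). The part of feeder cells in these values was not tested. Col1a1, with means of 670 and 80, lost its call without day 2.5 array 2 (adjusted p = 0.0566), and Cdh2 lost it under median centring and without each array in turn (up to 0.157).

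Among factors of lateral, paraxial and intermediate mesoderm, 9 of 23 were higher and 1 lower (median log2 change 1.37). Hand1, Tbx20, Irx3, Meis2 and Msx2 were higher with log2 changes of 2.01, 2.20, 1.63, 1.70 and 1.29. Irx3 had 939 and 1295 at day 6.5, against 367 and 340 at day 2.5 (adjusted p = 0.000847). Wt1, a factor of intermediate mesoderm, had means of 71 and 470 (log2 change -2.64), but its call was lost without each of the 4 arrays in turn (adjusted p up to 0.229). The calls of Foxf1, Eya1 and Gata4 were lost as well, with adjusted p up to 0.075, 0.184 and 0.315. Hox genes stayed low, with 3 of 33 called higher, close to the 8.21% over all genes, and 0 or 1 without any 1 array. Their highest mean was 284, of Hoxb2 at day 6.5. Neuroectoderm gave 0 higher and 2 lower of 22: Neurod1, with 133 and 125 at day 6.5 against 757 and 646 at day 2.5 (log2 change -2.39, adjusted p = 0.00121), and Tubb3, with 106 and 144 against 554 and 546 (log2 change -2.10, adjusted p = 0.00106).

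Primitive erythroid genes held the largest single changes of the comparison. Of 17 measured genes, 11 were higher and 1 lower (median log2 change 1.67), and the summed signal was 43426 and 48302 on the day 6.5 arrays, against 2243 and 1832 on the day 2.5 arrays. Hba-x, the zeta globin of the yolk sac, had 12724 and 12481, against 23 and 11.2 (log2 change 9.14, standard error 0.29, adjusted p = 2.75e-12). Hbb-bh1, the embryonic beta-like globin, had 19490 and 19932, against 19 and 51.6 (log2 change 9.02, standard error 0.32, adjusted p = 1.57e-11). Hbb-y, the epsilon-like globin, had 4869 and 7147, against 9.74 and 20.5 (log2 change 8.17, standard error 0.44, adjusted p = 5.06e-09). The beta-like globins are close in sequence, and probes of one may bind RNA of the other. The probe set that stands for Hba-a1, the alpha globin of later red cells, had means of 7 and 8. Probe sets with several symbols were assigned to no gene, so any of them that read alpha globin are not covered by these means. In CD144 negative cells of day 3.5, Hba-x stood at 175 and 102 and Hbb-bh1 at 565 and 521, so that the larger part of the difference lay between day 3.5 and day 6.5. In CD144 positive cells of day 6.5, Hba-x and Hbb-bh1 were at similar signals, with 11166 and 13726 for Hba-x and 17480 and 22900 for Hbb-bh1. Hbb-y was lower there, with 2602 and 3243.

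Genes of red cell formation beside the globins were called as well. Alas2, the first enzyme of heme synthesis in red cells, had 228 and 221 at day 6.5, against 7.25 and 4.47 at day 2.5 (log2 change 4.29, adjusted p = 0.000352). Slc4a1, the anion exchanger band 3, had 210 and 300, against 1.75 and 12.8 (log2 change 4.41, adjusted p = 0.000231). Klf1, the erythroid Krüppel-like factor, had 242 and 223, against 46.6 and 4.70 (log2 change 3.33, adjusted p = 0.00284), and lost its call without day 2.5 array 2 (adjusted p = 0.0706). Tal1, which blood and endothelial progenitors share, went the other way, with 495 and 550, against 1548 and 1321 (log2 change -1.44, adjusted p = 7.99e-05). Leaving out 1 array gave 5 to 9 higher calls, the fewest without day 2.5 array 2 and then 6 without day 2.5 array 1 or day 6.5 array 2. Gata1, Gfi1b, Nfe2, Ermap and Hemgn were among those lost, with adjusted p up to 0.314, 0.0653, 0.316, 0.188 and 0.112.

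Myeloid and megakaryocyte genes did not share in this. Of 21 myeloid and pan-leukocyte genes, 2 were higher and 4 lower (median log2 change 0.31). The pan-leukocyte gene Ptprc (CD45) had means of 21 at day 6.5 and 16 at day 2.5, and the adaptor Tyrobp 33 and 24, both below the median of all values. Coro1a, an actin regulator of leukocytes, had 200 and 176 at day 6.5, against 1353 and 1450 at day 2.5 (log2 change -2.86, standard error 0.21, adjusted p = 1.6e-07). Csf2rb, a shared cytokine receptor chain, had 196 and 263, against 26.5 and 9.95 (log2 change 3.35, adjusted p = 1.98e-05). The lower count became 1 without day 2.5 array 1, when Laptm5, Mpo and Lcp1 lost their calls (adjusted p up to 0.0899, 0.382 and 0.108), and Cd68, the second gene called higher, lost its call in 5 alternatives (up to 0.203). Of 9 megakaryocyte genes, 0 were called, with a median log2 change of 0.58.

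Ligands and antagonists of several pathways were higher. Of 21 Wnt ligands and secreted inhibitors, 5 were higher and 1 lower (median log2 change 1.02), and the largest changes were those of secreted modulators. Dkk1, an inhibitor of the Wnt co-receptor, had 2286 and 2219 at day 6.5, against 265 and 287 at day 2.5 (log2 change 3.0, standard error 0.19, adjusted p = 2.78e-08). Rspo3, an enhancer of Wnt signals, had 1954 and 1802, against 321 and 291 (log2 change 2.60, adjusted p = 8.14e-07). Sfrp1, a decoy that binds Wnt ligands, had 1099 and 1319, against 243 and 324 (log2 change 2.08, adjusted p = 3.35e-06), while the call of Sfrp2 in the other direction (log2 change -1.08) was lost without either day 2.5 array (adjusted p up to 0.0653). The call of the ligand Wnt4 was lost under both other scalings and without each array in turn (up to 0.253).

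For the BMP pathway, 6 of 16 genes were higher and 2 lower (median log2 change 0.53). Bmp2 had 1804 and 2527 at day 6.5, against 376 and 338 at day 2.5 (log2 change 2.56, standard error 0.17, adjusted p = 5.31e-08). Bmp4 had 1597 and 1327, against 669 and 724 (log2 change 1.06, adjusted p = 0.000788), and Bmp5 had 415 and 493, against 71.0 and 27.6 (log2 change 3.17, adjusted p = 0.000116). Id1, a target of BMP signals, had 3317 and 2701, against 2899 and 3022, with overlapping arrays (log2 change 0.02, adjusted p = 0.986). The antagonists Nog and Bmper lost their calls in several alternatives (adjusted p up to 0.305 and 0.227), and both lower calls, Id4 and Smad7, were lost without either day 2.5 array (up to 0.194 and 0.0951).

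In the insulin-like growth factor axis, 6 of 13 genes were higher and 1 lower (median log2 change 0.84). Igf2, the fetal growth factor, had 9722 and 7934 at day 6.5, against 1386 and 1325 at day 2.5 (log2 change 2.69, standard error 0.21, adjusted p = 4.93e-07). Igfbp3, a binding protein, had 3969 and 4676, against 1000 and 1025 (log2 change 2.08, adjusted p = 0.000116). Igf1 was low, with 32.8 and 53.1 against 121 and 114, and its call as lower (log2 change -1.36, adjusted p = 0.016) was lost without day 6.5 array 1 or either day 2.5 array (up to 0.129). Imprinted genes, a class that includes Igf2, gave 7 higher and 1 lower of 18 (median log2 change 0.69). Peg3 had 11084 and 9893, against 2567 and 2587 (log2 change 2.02, adjusted p = 3.33e-05), on 2 of its 5 probe sets. Dlk1 had 1189 and 903, against 237 and 267 (log2 change 2.01, adjusted p = 0.000342). Phlda2, a growth restrainer of the placenta, was the gene called lower, with 2595 and 2342 against 4856 and 4763 (log2 change -0.96, adjusted p = 0.000535). Meg3, the RNA from the allele opposite to that of Dlk1, had 11 probe sets and 0 called.

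Genes of retinoic acid handling gave 4 higher and 1 lower of 14 (median log2 change 0.85). Rarb, a receptor that is itself a target of retinoic acid, had 174 and 148 at day 6.5, against 6.82 and 18.2 at day 2.5 (log2 change 3.24, adjusted p = 0.000903). Rarg, another receptor, had 483 and 576, against 1146 and 1140 (log2 change -1.11, adjusted p = 0.00334). The count of 4 became 2 under median centring, without day 6.5 array 1, without either day 2.5 array and with these averaged, when Cyp26a1 and Rdh10 lost their calls (up to 0.121 and 0.244).

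Hypoxia and glycolysis genes rose in 12 of 17 measured members, with 1 lower (median log2 change 1.09), and 11 were higher without any 1 array. Ndrg1, a hypoxia-induced gene, had 1986 and 2857 at day 6.5, against 364 and 372 at day 2.5 (log2 change 2.67, standard error 0.23, adjusted p = 1.01e-06). P4ha1, a collagen prolyl hydroxylase, had 2747 and 2508, against 492 and 510 (log2 change 2.38, adjusted p = 2.72e-07). Vegfa, the ligand of VEGF-R2, had 1046 and 834, against 301 and 305 (log2 change 1.60, adjusted p = 2.82e-05). The glucose transporters Slc2a1 and Slc2a3 were higher with log2 changes of 1.20 and 1.13, and Bnip3, a mitophagy receptor, with 1.41. Pdk1, a kinase that restrains pyruvate use in mitochondria, was lower, with 4246 and 5478 against 8049 and 7689 (log2 change -0.71, adjusted p = 0.00272). Glycolytic enzymes moved less, and Pgk1 (log2 change 0.64) lost its call under median centring (adjusted p = 0.0754), as Ldha (0.49) did there and without each array in turn (up to 0.299). In CD144 negative day 3.5 cells, 12 of the 17 were called higher and 1 lower than in VEGF-R2 negative day 2.5 cells, against 6.48% of all genes higher and 4.95% lower in that comparison, which shares the day 2.5 arrays.

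Genes of MHC class I and antigen presentation gave 6 higher and 0 lower of 8 (median log2 change 0.95), and this count became 2 without either day 2.5 array, 3 without day 6.5 array 1 and 3 under median centring. B2m, the light chain of class I molecules, had 4563 and 3555 at day 6.5, against 1962 and 2068 at day 2.5 (log2 change 1.0, adjusted p = 0.000592). Psmb8, a subunit of the immunoproteasome, had 2146 and 1965, against 538 and 618 (log2 change 1.82, adjusted p = 0.000938). The heavy chain gene H2-K1 and the genes Tapbp, Tap2 and Psmb9 lost their calls in part of the alternatives (adjusted p up to 0.272, 0.0901, 0.145 and 0.127), and class I heavy chains share sequence.

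Cell cycle genes changed little. Of 23 genes of replication and mitosis, 3 were lower and 0 higher (median log2 change -0.06). Ccne1, cyclin E1, had 806 and 1086 at day 6.5, against 3502 and 3430 at day 2.5 (log2 change -1.88, standard error 0.18, adjusted p = 3.35e-06). Plk1, a mitotic kinase, had 2277 and 2258, against 4078 and 4025 (log2 change -0.84, adjusted p = 0.00186), and the call of Mcm2 was lost in 4 alternatives (up to 0.183). Mki67, which marks cycling cells, had means of 6023 and 5138 and was not called. Cdkn1b, the inhibitor p27, had 3310 and 3644, against 1282 and 1305 (log2 change 1.42, adjusted p = 0.000169), and Ccnd2, cyclin D2, was higher on 6 of its 7 probe sets (log2 change 1.04, adjusted p = 0.000217). Of 15 immediate early and stress genes, 2 were higher and 1 lower. Of 8 housekeeping genes, 0 were called on the probe sets that stand for them, with a median log2 change of 0.19.

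The CD144 negative cells of day 3.5 divide this span of days for 1 of the 2 negative sorts of that day. From day 2.5 to day 3.5 the sort antigen changes from VEGF-R2 to CD144 together with the day. From day 3.5 to day 6.5 it stays CD144. The parts of antigen and day in the first of these cannot be told apart. Between CD144 negative day 3.5 and VEGF-R2 negative day 2.5 cells, 3215 probe sets (7.14%) were called, 1758 higher and 1457 lower, and 7773 had an unadjusted p under 0.05. Between CD144 negative day 6.5 and CD144 negative day 3.5 cells, 324 (0.719%) were called, 251 higher and 73 lower, and 3355 had an unadjusted p under 0.05. The first of these comparisons shares the day 2.5 arrays and the second the day 6.5 arrays with the main one. The first had 1299 to 1575 calls without 1 array and 1256 with the day 2.5 arrays averaged. The second had 658 calls without day 6.5 array 1, 109 without day 6.5 array 2, and 102 and 97 without day 3.5 array 1 and 2. By gene, 6.48% were called higher and 4.95% lower in the first, and 0.940% higher and 0.280% lower in the second. Lists differed in the comparison in which their genes were called. Of the 25 endothelial genes, 19 were lower in the first comparison and 1 in the second. Of the 17 erythroid genes, 2 were higher in the first and 9 in the second. The list of parietal endoderm and basement membrane had 2 higher in the first and 8 in the second, and the cardiac list had 8 and 7.

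Single genes differed between these comparisons as well. Kdr had 2088 and 2077 at day 2.5, 1001 and 740 in CD144 negative cells of day 3.5, and 352 and 427 at day 6.5. In CD41 negative cells of day 3.5, which the study's methods write as also lacking VEGF-R2, Kdr had 53.5 and 95.1, below day 6.5. The steps thus hold for the CD144 negative sort of that day and not for both. Krt8 had 1476 and 1327, then 5748 and 6050, then 10601 and 13476 at these days, and was called higher in both steps, the second of them lost under median centring and without any array but day 6.5 array 1. Lama1, by contrast, had 291 and 294 at day 2.5, 253 and 273 at day 3.5, and 2102 and 1941 at day 6.5. Acta2 also moved late, with 507 and 474, then 675 and 652, then 3439 and 4180.

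The same span of days was also compared between positive sorts, CD144 positive cells of day 6.5 and VEGF-R2 positive cells of day 2.5, which share no array with the negative sorts. The change in negative sorts differed from that in positive sorts for 2181 probe sets (4.84%), of which 922 had the higher log2 change in negative sorts and 1259 the lower. With each array centred on its median the calls were 778 and 753, and under quantile normalization 1011 and 1024. By gene, 3.31% were called with the higher and 3.94% with the lower change in negative sorts. Without adjustment, 7898 probe sets had a p under 0.05. There were 973 and 964 calls without day 2.5 negative array 1 and 2, and 950 with these averaged. In the positive sorts the sort antigen also differs between the days, and duplicates of positive sorts correlated less closely (Spearman 0.872 to 0.895) than those of negative sorts (0.945 to 0.955). The hybridization spikes were brighter on all positive arrays (6481 to 11175) than on any negative array (2134 to 3022). What this adds to the difference between the sorts was not tested.

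**Figure D4:**
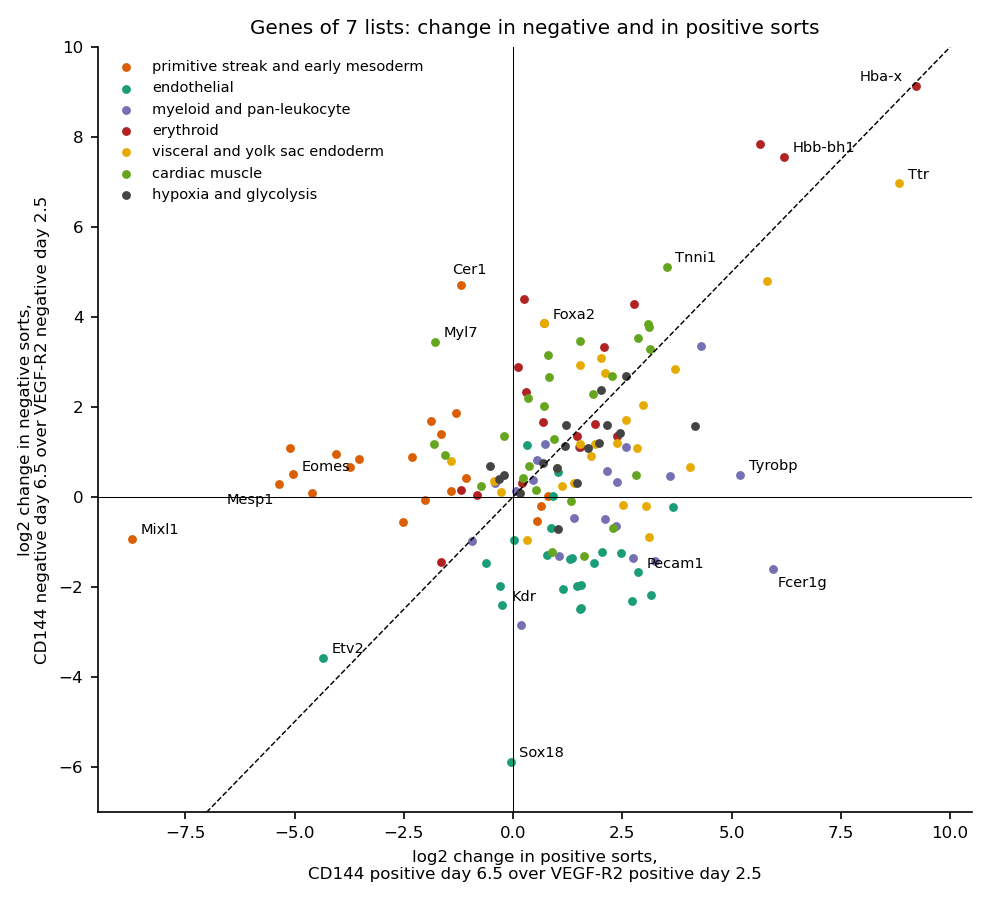
Log2 change between day 2.5 and day 6.5 in negative sorts (vertical) against that in positive sorts (horizontal) for the genes of 7 lists, 1 point a gene, with the line of equal change dashed. Streak genes such as Mixl1 lie above the line, since they were lower at day 6.5 in positive sorts, and endothelial genes such as Sox18 and myeloid genes such as Fcer1g lie below it.

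For 14 of 21 primitive streak genes the change was higher in negative sorts and for 0 lower. Mixl1 had 803 and 767 in CD144 negative day 6.5 cells, against 1526 and 1477 in VEGF-R2 negative day 2.5 cells. In the positive sorts it had 23.3 and 17.8 at day 6.5, against 11079 and 11204 at day 2.5, and the log2 changes differed by 7.79 (standard error 0.30, adjusted p = 3.89e-10). Eomes, on its second probe set, had 1645 and 1387, against 951 and 986, and in the positive sorts 129 and 89.2, against 4189 and 3542 (difference 5.73, standard error 0.38, adjusted p = 1.2e-07). For both genes the CD144 negative arrays of day 6.5 lay above the CD144 positive arrays of that day.

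Endothelial genes differed the other way, with 0 of 25 changing more upward and 19 more downward in negative sorts. The day 6.5 cells were split by CD144, an endothelial antigen, so this count is not independent of the sort. The list also holds Cdh5 and Kdr, which encode the sort antigens, with differences of -3.31 and -2.16. Cd34 had 71.3 and 91.7, against 371 and 406, in negative sorts, and 5087 and 4685, against 454 and 648, in positive sorts (difference -5.34, standard error 0.34, adjusted p = 9.79e-08). In the myeloid list the change was lower in negative sorts for 8 of 21 genes and higher for 0. In the erythroid list the change was higher in negative sorts for 3 of 17 genes and lower for 0, against 3.31% higher over all genes. For Hba-x the changes in the 2 kinds of sort did not differ by the test, with a difference of -0.08 (standard error 0.40, adjusted p = 0.952). For Hbb-bh1, on the probe set given above, the difference was 2.14 (standard error 0.45, adjusted p = 0.00956), a call lost without some single arrays. Pluripotency genes had 12 of 27 with the lower and 3 with the higher change in negative sorts. Sox2 is an example, with 5375 and 5830 against 6226 and 6487 in negative sorts and means of 4720 and 398 in positive sorts at day 6.5 and at day 2.5 (difference -3.75, standard error 0.43, adjusted p = 4.72e-05). Bmp2 had the higher change in negative sorts, since in positive sorts it had means of 753 and 2742 (difference 4.42, standard error 0.23, adjusted p = 1.12e-08).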

How the data were processed

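Expression in sorted cells of CCE embryoid bodies was profiled on a mouse genome array, with 16 arrays over 8 populations. The deposited values are intensity values that the labels credit to MAS5, without detection calls. The study's methods describe dChip values instead, with invariant set normalization and modelling of perfect match probes, which were not used here. In the table, each array has a mean of 500 over the percentiles 2 to 98, as a MAS5 scaling would give. A brightness has no read depth, and the precision is limited by 2 arrays in each population. Groups were taken from the sample titles. After 64 control probe sets were removed, log2(signal + 6.03), the offset being the 10th percentile of all values, was fitted for 45037 probe sets with 1 mean per population in limma 3.58.1 (R 4.3.3, eBayes with trend), with Benjamini-Hochberg adjustment at 0.05. Gene names were taken from the platform annotation, in which 34945 probe sets have 1 symbol, 932 several and 9160 none.

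Genes were named by rule: the sort markers, the 15 called probe sets per direction with the largest change, the higher group mean above the 75th percentile and no overlap, at most 6 called genes per list plus its defining markers, and 6 per direction for the difference from positive sorts. Other list members were named after their values were seen. The comparison and the 29 gene lists were chosen with earlier results of these data known. Alternatives were other offsets, filters, scalings and priors, fewer populations in the fit, a replicate block, another probe set per gene and leaving out each array. Counting the day 2.5 arrays as 1 sample was added after the data were seen. The model was also tested on simulated data, drawn with set fold changes. Figures were made with matplotlib 3.10.9 (Python 3.11.15, pandas 2.3.3, numpy 2.4.6).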

Additional observations from a re-analysis of the deposited data

Results flagged for a closer look

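For 12 genes, the 6 with the largest difference in each direction under the naming rule, the change from day 2.5 to day 6.5 in negative sorts (CD144 negative over VEGF-R2 negative) differed from that in positive sorts (CD144 positive over VEGF-R2 positive) by the test of the difference itself in limma. The difference is given on the log2 scale, negative minus positive sorts, with its standard error and adjusted p. Streak genes led the higher side: Mixl1 with 7.79 (0.30, adjusted p = 3.89e-10), Lhx1 with 7.33 (0.64, adjusted p = 2.89e-06), Cer1 with 5.90 (0.35, adjusted p = 4.64e-08), Eomes with 5.73 (0.38, adjusted p = 1.2e-07) and Mesp1 with 5.63 (0.37, adjusted p = 1.2e-07). Myl7, the atrial myosin light chain, followed with 5.24 (0.26, adjusted p = 6.54e-09). Lhx1, Eomes and Mesp1 were not called in negative sorts, and their log2 changes in positive sorts were -6.71, -5.09 and -5.35. Myl7 changed by 3.45 in negative sorts and by -1.79 in positive sorts. At day 6.5 its mean was 1440 in CD144 negative and 3150 in CD144 positive cells.

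On the lower side stood the chemokine genes Ccl6 with -8.54 (0.90, adjusted p = 2.46e-05) and Ccl9 with -6.47 (1.06, adjusted p = 0.00146), the Fc receptor chain Fcer1g with -7.57 (1.03, adjusted p = 0.000298) and the leukocyte adaptor Sla with -6.07 (0.93, adjusted p = 0.000843). Pde2a with -7.13 (0.46, adjusted p = 1.05e-07) and Sparcl1 with -6.27 (1.19, adjusted p = 0.0045) completed them. Ccl9, Sparcl1, Sla and Fcer1g were not called in negative sorts, with log2 changes of -0.08, -0.08, -0.07 and -1.61. Their means were 1199, 819, 965 and 832 in CD144 positive day 6.5 cells. In the other populations compared they lay below the median of all values. Pde2a changed by -4.65 and Ccl6 by -3.14 in negative sorts, and by 2.49 and 5.39 in positive sorts. The call of Ccl6 in negative sorts was lost without day 2.5 array 2. All 12 differences have the sort antigen and the day changing together. With 2 arrays in each population, single arrays that stand apart within a group were not looked for.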

How the results depend on the processing

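Of 2444 values for 163 single genes, 2213 kept their side of the threshold, 229 lost the call, 2 gained it and 0 reversed. A change of sign was counted as reversed only where the gene was called in the reported fit or in the alternative. Uncalled genes could change sign, as Mesp1 did, with log2 changes from -0.01 to 0.58. The 163 genes were picked by largest change, by largest difference from positive sorts or as sort markers. From each list, up to 6 called members with the largest change were added. The shares therefore do not describe all probe sets. The direction of the median change did turn, to -0.05 under median centring against 0.08 as reported, and with it the balance of calls. Of 986 counts over gene lists, 839 stayed within 1.5 times and 147 did not. For CD144 negative day 6.5 against VEGF-R2 negative day 2.5 cells, the 3951 calls became 7029 (3981 higher, 3048 lower) with negative populations fitted alone, 1895 (1252, 643) with a robust prior without trend, 1529 (988, 541) with the day 2.5 arrays averaged, and 1616 to 3495 without 1 array (1053 to 1809 higher, 563 to 1686 lower). Median centring gave 1329 higher and 1877 lower, or 41.5% higher against 57.6% as reported. The 1074 probe sets beyond a 2-fold bound became 2785 with a bound of 1.5, 2146 with a fold above 3 and no bound, 761 with the day 2.5 arrays averaged, and 850 to 1169 without 1 array. Against CD144 negative day 3.5, the 324 calls became 179 with those populations alone, 694 with negative populations alone, 189 under median centring (65.6% higher, against 77.5%), 92 with the robust prior, and 97 to 658 without 1 array. For day 3.5 against day 2.5, the 3215 calls became 9113, 5831, 1457 with the robust prior, 1256 averaged, and 1299 to 1575 without 1 array. The difference from positive sorts, with 2181 calls, gave 778 higher and 753 lower under median centring (50.8% higher, against 42.3%), 941 with the robust prior, 950 averaged, and 964 to 2314 without 1 array. The cause was not tested.

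With a replicate block the counts were 4134 (2364 higher, 1770 lower), 338, 3337 and 2271, and 1074 beyond the bound. Deviations of same-numbered arrays correlated at -0.047 to 0.047, so the numbers are not treated as pairs. Without detection calls, low signals have no stated background.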
